A study of Saccharomyces cerevisiae with 6 samples.

Results

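Of the 271 genes with a listed annotated junction in these budding yeast data, 5 encode parts of the spliceosome itself: *MUD1*, *SMD2*, *LSM2*, *LSM7* and *YSF3*. They were taken by name, each has 1 annotated intron, and together they hold 5 of the 281 annotated introns listed. The comparison is between *prp18Δupf1Δ* cells, in which *PRP18* was replaced by kanMX6 and *UPF1* by a *HIS3* marker, and *upf1Δ* cells, in which *UPF1* alone was replaced. Both strains have the BY4741 background and were grown in YPD, a rich medium, to mid-log phase, and 3 stranded mRNA libraries were sequenced from each. Prp18p is a splicing factor that acts at exon joining, where it helps to hold the 3′-splice site (3′SS). Upf1p is needed for nonsense-mediated decay, so both strains lack the pathway that removes many mRNAs with an early stop codon. *PRP18* and *UPF1* have no intron and no junction in the tables, so the deletions could not be checked in these data. Whether the 3 libraries of a strain are separate cultures is not given in the sources used here, and p values therefore reflect library-to-library spread, which may be technical.

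The spliceosome assembles on each intron from small nuclear ribonucleoproteins (snRNPs). The U1 snRNP, of which Mud1p is a protein, binds the 5′-splice site (5′SS), and the U2 snRNP, with the SF3b complex that contains Ysf3p, binds the branch point. A ring of Sm proteins, among them Smd2p, encircles the U1, U2, U4 and U5 RNAs, whereas U6 RNA carries a ring of the related Lsm proteins. Lsm2p and Lsm7p are in that ring and also in the cytoplasmic Lsm ring that takes part in mRNA decay. The genes of these proteins therefore depend, for their own mRNA, on the machinery that they build.

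The 5 introns are shown here because the alternative sites described further on lie within or next to them. Each sequence runs from the first base of the intron into exon 2 and was read from the R64 genome, the build of the files. Capitals mark the 5′SS, the branch heptamer, the annotated 3′SS and each alternative 3′SS within the printed stretch that passed the filters, and for *LSM2*, whose CAG at 40 nt and UAG at 67 nt downstream lie beyond it, also a second branch-like heptamer that the files pair with its upstream site.
MUD1: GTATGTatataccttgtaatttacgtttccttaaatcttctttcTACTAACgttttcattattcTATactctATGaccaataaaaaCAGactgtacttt
SMD2: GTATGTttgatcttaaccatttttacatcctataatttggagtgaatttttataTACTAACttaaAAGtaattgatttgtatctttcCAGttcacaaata
LSM2: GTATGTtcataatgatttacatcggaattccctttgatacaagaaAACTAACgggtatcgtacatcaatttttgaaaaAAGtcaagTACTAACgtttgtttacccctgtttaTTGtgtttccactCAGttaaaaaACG
LSM7: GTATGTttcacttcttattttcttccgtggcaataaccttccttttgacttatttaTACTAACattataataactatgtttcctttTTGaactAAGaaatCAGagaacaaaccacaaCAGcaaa
YSF3: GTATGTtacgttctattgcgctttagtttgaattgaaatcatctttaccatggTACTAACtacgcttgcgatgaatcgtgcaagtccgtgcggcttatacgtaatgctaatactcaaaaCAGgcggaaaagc

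All 5 introns interrupt the coding sequence close to its start and carry the consensus 5′SS GUAUGU and the consensus branch heptamer UACUAAC. The 2 motifs occurred together in 103 of the 163 other introns outside ribosomal protein genes (63.2%). The *MUD1* intron (chrII:479346-479434, plus strand, 89 nt) follows 8 coding nt, and its branch adenosine lies 39 nt before the annotated 3′SS CAG. The *SMD2* intron (chrXII:694383-694472, plus strand, 90 nt) follows 5 coding nt and has 30 nt between branch and CAG. The *LSM2* intron (chrII:170677-170804, plus strand, 128 nt) follows 54 coding nt, with 36 nt from branch to CAG. These introns of *MUD1*, *SMD2* and *LSM2* thus end in the same 3′SS but differ in how much coding sequence precedes them. The *LSM7* intron (chrXIV:350958-351053, plus strand, 96 nt) follows 18 coding nt and ends 34 nt after its branch in AAG, which was the annotated 3′SS of 10 of the 163 other introns (6.13%). The *YSF3* intron (chrXIV:366036-366157, plus strand, 122 nt) follows the start codon alone, 3 coding nt, and its branch lies 63 nt from CAG. The median distance over the 163 other introns was 29 nt, with quartiles of 20 and 39 nt, so that of *YSF3* stood above the upper quartile and that of *MUD1* on it. The 10 nt before the annotated 3′SS held 6 U in *SMD2* and *LSM7* and 5 in *LSM2*, but only 1 in *MUD1* and 2 in *YSF3*, against a median of 4.

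**Figure D1:**
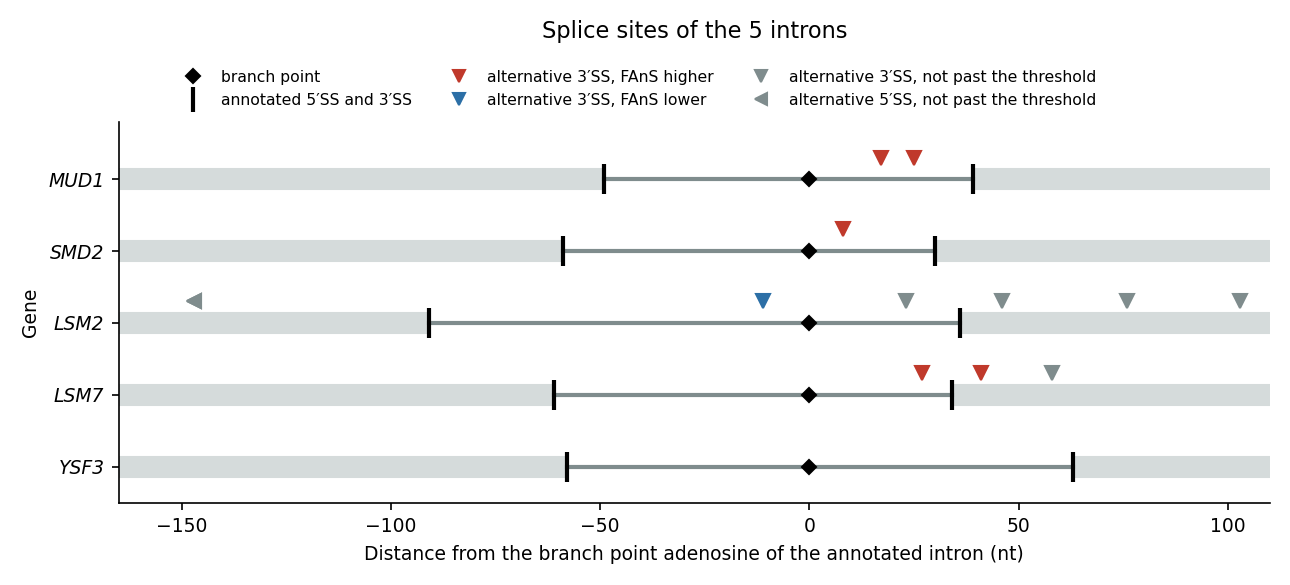
Splice sites of the 5 introns, drawn to scale against the distance in nt from the branch point adenosine of the annotated intron. Lines are introns, grey boxes the flanking sequence, and triangles the alternative sites that passed the filters, coloured by the edgeR test of FAnS: all 3 sites past the threshold in *MUD1* and *SMD2* lie between branch and annotated 3′SS, and *YSF3* has no triangle.

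The *prp18Δupf1Δ* libraries held 791819 to 1250953 reads of annotated junctions and the *upf1Δ* libraries 1347936 to 1502384, of which 1841 to 2133 and 3241 to 4535 fell on the 5 genes. Replicate 1 stood apart in both strains. Over 272 introns, its annotated reads differed from those of the other replicates of its strain by a chi-square of 110.7 to 121.7 per degree of freedom, against 5.70 between replicates 2 and 3 of *prp18Δupf1Δ* and 14.2 between those of *upf1Δ*. Several of the values below are therefore also given without it.

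Annotated splicing fell in 4 of the 5 genes, *MUD1*, *SMD2*, *LSM2* and *LSM7*, while *YSF3*, which was spliced poorly in both strains, did not pass the test. Splicing efficiency (SE) is the share of annotated junction reads among annotated junction and unspliced reads, where unspliced reads are the mean of those across the intact 5′SS and 3′SS. Reads across the 3′SS can also come from lariat intermediate, RNA that is cut at the 5′SS but whose exons are not yet joined. The part of that intermediate in the unspliced reads was not tested. The test was edgeR's quasi-likelihood test on the ratio of spliced to unspliced reads, with Benjamini-Hochberg adjustment over 272 introns. A lower ratio was called in 81.6% of all introns tested, so 4 of 5 is a share near the background.

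The SE of *MUD1* was 87.5, 58.3 and 63.5% in *prp18Δupf1Δ* replicates 1, 2 and 3, against 98.1, 95.6 and 95.9% in *upf1Δ*. The strains did not overlap, and replicate 1 of *prp18Δupf1Δ* lay far above the other two. Behind these values stood 214, 97 and 122 annotated reads and 30.5, 69.5 and 70 unspliced reads in *prp18Δupf1Δ*, against 378, 350 and 374 annotated and 7.5, 16 and 16 unspliced reads in *upf1Δ*. The mean was 69.8% ± 15.6 in *prp18Δupf1Δ* and 96.5% ± 1.33 in *upf1Δ* (SD, n = 3 each), and the ratio of spliced to unspliced reads changed by -3.50 on the log2 scale, with a standard error of 0.67 (edgeR adjusted p = 0.00172). Without replicate 1 of both strains the log2 change was -3.85. *MUD1* had the lowest mean SE of the 4 genes in *prp18Δupf1Δ*, although in *upf1Δ* it was above that of *LSM2*.

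In *upf1Δ* cells *SMD2* was among the most completely spliced introns outside ribosomal protein genes, and it kept most of its splicing in the double mutant. Its SE was 93.5, 81.3 and 87.1% in *prp18Δupf1Δ*, against 99.5, 97.3 and 98.9% in *upf1Δ*, with no overlap. The log2 change of the ratio was -3.31 ± 0.66 (SE of the estimate, edgeR adjusted p = 0.00218). It rests on few unspliced reads, 9.5, 27 and 17.5 in *prp18Δupf1Δ* and 1.5, 8.5 and 4 in *upf1Δ*.

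Of the Lsm genes, *LSM2* lost more of its SE in percentage points and *LSM7* more on the scale of the ratio. *LSM2* had an SE of 82.4, 76.4 and 76.0% in *prp18Δupf1Δ* and of 95.1, 92.9 and 92.6% in *upf1Δ*, and the log2 change was -2.02 ± 0.29 (edgeR adjusted p = 0.000494). *LSM7* had an SE of 94.6, 91.7 and 90.4% in *prp18Δupf1Δ* and of 99.5, 98.7 and 99.3% in *upf1Δ*, and the log2 change was -3.33 ± 0.40 (edgeR adjusted p = 0.000247). Neither gene overlapped between strains, and replicate 1 of *prp18Δupf1Δ* was again the highest of its strain. All 11 annotated introns that end in AAG, that of *LSM7* included, lie outside ribosomal protein genes and were called lower in *prp18Δupf1Δ*. The share called lower over all introns tested was 81.6%. That share includes introns of ribosomal protein genes, whose median log2 change was smaller, -1.59, so it is not a matched background for the AAG introns. The log2 changes of the 11 AAG introns lay between -4.55 for *RBS1* and -1.96 for *LSB3*, where the median of introns outside ribosomal protein genes was -2.16.

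*YSF3* differed from the other genes in both its level of splicing and its change. Its SE was 29.4, 28.1 and 30.05% in *prp18Δupf1Δ*, against 30.6, 38.4 and 36.6% in *upf1Δ*, so that most reads over the intron were unspliced in every library. The strains did not overlap, but the lowest *upf1Δ* library, replicate 1, lay within 1 percentage point of the highest *prp18Δupf1Δ* library. The log2 change of the ratio was -0.39, with a 95% interval of -0.999 to 0.215 (edgeR adjusted p = 0.194). Without replicate 1 of both strains it was -0.55 and passed the threshold (adjusted p = 0.00833). In that setting 256 of the 272 introns were called lower, against 222 with all 6 libraries. The 95% interval of *YSF3* lay wholly above that of each of the other 4 genes, of which *LSM2* came nearest with -2.69 to -1.34, though a test of one gene against another was not made.

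**Figure D2:**
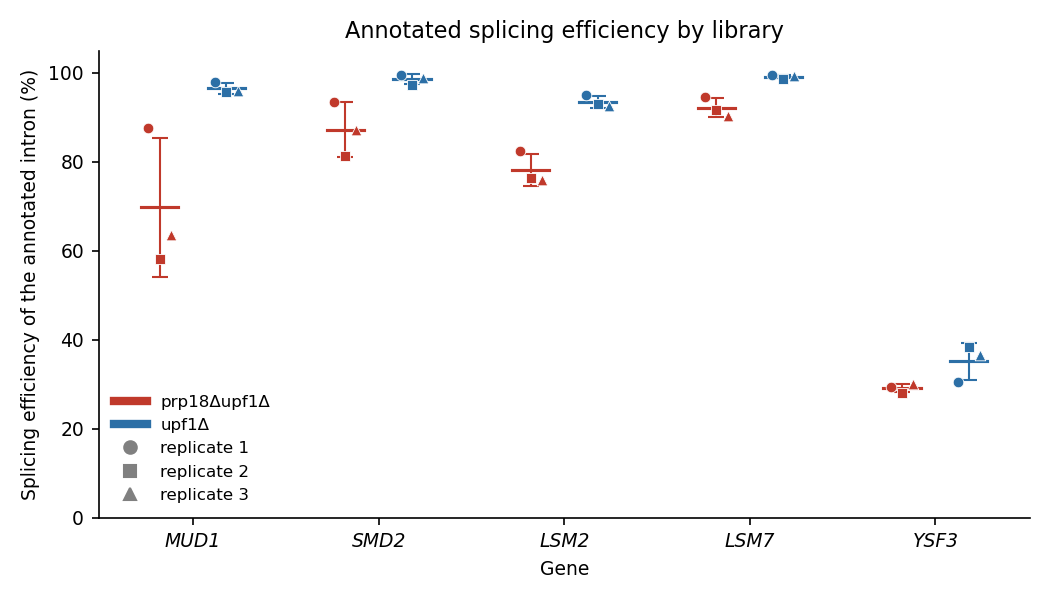
Splicing efficiency of the annotated intron (%) of each gene by library, with *prp18Δupf1Δ* left of *upf1Δ*; lines are the mean, bars the SD over 3 libraries, and symbols the replicates. The 2 strains separate in every gene, widely in *MUD1* and by less than 1 percentage point in *YSF3*, and circles (replicate 1) lie highest in *prp18Δupf1Δ* for 4 of the 5 genes.

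Against the 168 introns tested outside ribosomal protein genes, whose median log2 change was -2.16 with quartiles of -2.83 and -1.61, the members fell on both sides. Counted from the largest fall, *MUD1* ranked 14, *LSM7* 18, *SMD2* 19, *LSM2* 92 and *YSF3* 161. In mean SE counted from the lowest, *YSF3* ranked 11 in *upf1Δ* and 25 in *prp18Δupf1Δ*, and *LSM7* ranked 164 and *SMD2* 157 in *upf1Δ*. The median SE of these introns was 73.1% in *prp18Δupf1Δ* and 92.2% in *upf1Δ*. For 3 members the ratio thus lay below the lower quartile of change, for *LSM2* it was close to the median, and for *YSF3* it lay above the upper quartile.

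A single value per strain allows an exact permutation test over libraries, which with 3 against 3 cannot give a two-sided p below 0.1. All 5 genes gave that smallest value, and all 3 libraries of *prp18Δupf1Δ* lay below all 3 of *upf1Δ* in 82.7% of all introns.

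Reads of alternative junctions were found in 4 of the 5 genes at the filters used here, and *YSF3* had none. A junction was kept when it had clean overhangs and at least 6 gapped reads over the 6 libraries. *LSM2* kept 7 of 27 listed junctions, *LSM7* 3 of 13, *MUD1* 2 of 8 and *SMD2* 1 of 4. The fraction of annotated splicing (FAnS) divides a junction's reads by the annotated reads of its intron, and the SE of an alternative junction divides them by annotated plus unspliced reads. FAnS was higher in *prp18Δupf1Δ* for 5 of the 13 junctions and lower for 1, against 21.0% higher and 10.7% lower among all 884 junctions tested by edgeR. In every library, the alternative reads were a minority of the reads over the intron.

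In *MUD1*, an AUG 14 nt upstream of the annotated CAG was the most changed site. Its reads numbered 26, 16 and 19 in *prp18Δupf1Δ*, against 0, 1 and 0 in *upf1Δ*. The FAnS was 12.1, 16.5 and 15.6% in *prp18Δupf1Δ* and 0, 0.286 and 0% in *upf1Δ*, where a count of 0 allows up to 0.794 and 0.802%. The strains were far apart, and no *upf1Δ* library had more than 1 read. The ratio of the pooled FAnS was 155.2, with a counting interval of 26.8 to 6231 that covers counting error only (edgeR adjusted p = 1.08e-12). The SE of this junction was 10.6, 9.61 and 9.90% in *prp18Δupf1Δ* and 0, 0.273 and 0% in *upf1Δ* (edgeR adjusted p = 2.7e-08), so it varied less between the *prp18Δupf1Δ* libraries than the annotated SE did. The reads came from 51 distinct alignments. All 73 gapped reads were placed by BBMap alone and none by STAR, with no ambiguous base at the junction. The paper states that STAR misplaced reads of this site whereas BBMap placed them correctly, and it also reports use of the site by RT-PCR. The part of the aligner in the FAnS given here was not tested.

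The AUG lies 25 nt from the branch point, and as the printed *MUD1* sequence shows, no AG stands between the branch heptamer and the annotated CAG. The 10 nt before the AUG hold 5 U, against 1 U before the CAG. A UAU 8 nt further upstream, 17 nt from the branch, was used with 2, 3 and 1 reads in *prp18Δupf1Δ*, against 0, 0 and 1 in *upf1Δ*. Its pooled FAnS was 1.39% in *prp18Δupf1Δ* and 0.0907% in *upf1Δ*, a ratio of 15.3 with a counting interval of 1.85 to 702.4 (edgeR adjusted p = 0.0198). The call was lost without *prp18Δupf1Δ* replicate 2 (adjusted p = 0.154), without *upf1Δ* replicate 1 (0.0792), without replicate 1 of both strains (0.117) and with a minimum of 1 read (0.127). The AUG ends in G without a preceding A, and of the 120 sites of that kind upstream of an annotated 3′SS, this one included, 55 rose in FAnS (45.8%). The UAU does not end in G, and of the 84 such upstream sites, this one included, 25 rose (29.8%).

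In *SMD2*, an AAG 8 nt after the branch point was used in each *prp18Δupf1Δ* library and in no *upf1Δ* library. It had 2, 2 and 2 reads in *prp18Δupf1Δ*, a FAnS of 1.47, 1.71 and 1.69%, against 0, 0 and 0 reads in *upf1Δ*. A count of 0 allows a FAnS of up to 1.02, 0.984 and 0.855% in the *upf1Δ* libraries. The pooled FAnS of *prp18Δupf1Δ* was 5.13 times a floor of 3 reads over the pooled *upf1Δ* libraries (edgeR adjusted p = 0.00358). This fold leaves out the counting error of the *prp18Δupf1Δ* reads and is not a lower bound. The adjusted p stayed between 0.00904 and 0.027 when each library was left out in turn. All reads of the site were in *prp18Δupf1Δ*, so it met the minimum of 6 gapped reads through the strain in which it was high. In the printed sequence this AAG is the only AG between the branch heptamer and the annotated CAG, and 3 U stand in the 10 nt before it, against 6 U before the CAG. Of the 41 upstream AAG sites tested in all genes, this one included, 19 rose (46.3%) and 7 fell.

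The alternative 3′SS with the most reads in the 5 genes was in *LSM7*, a CAG 7 nt downstream of its annotated AAG. It was read 131, 110 and 99 times in *prp18Δupf1Δ*, against 98, 77 and 90 times in *upf1Δ*. The FAnS was 13.8, 12.8 and 14.6% in *prp18Δupf1Δ* and 6.51, 4.94 and 5.47% in *upf1Δ*, with no overlap. The log2 change of FAnS was 1.29 ± 0.26 (edgeR adjusted p = 7.0e-05) and that of its SE was 1.184 ± 0.251 (edgeR adjusted p = 0.000601, against 0.064 with DESeq2). The libraries of each strain lay close together, and the rise was seen against annotated reads and against annotated plus unspliced reads. Of the 98 CAG and UAG sites downstream of an annotated 3′SS in all genes, *LSM7* included, 14 rose (14.3%) and 12 fell.

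The other *LSM7* sites were rare. A UUG 7 nt upstream of the AAG had 4, 1 and 1 reads in *prp18Δupf1Δ*, against 0, 0 and 1 in *upf1Δ*, a pooled ratio of FAnS of 11.4 with a counting interval of 1.38 to 523.3 (edgeR adjusted p = 0.0473). That call was lost with the replicate number as a block (adjusted p = 0.089), with DESeq2 (0.0789), with a minimum of 1 read (0.224), without the filters on overhangs and mismatches (0.0887), without replicate 1 of both strains (0.452), and without *prp18Δupf1Δ* replicate 1 (0.335), *prp18Δupf1Δ* replicate 3 (0.0847), *upf1Δ* replicate 1 (0.13) or *upf1Δ* replicate 2 (0.113). Measured as SE, the UUG junction changed by 3.03 on the log2 scale and missed the threshold in the main test (edgeR adjusted p = 0.0594). A CAG 24 nt downstream of the AAG had 1, 0 and 0 reads in *prp18Δupf1Δ*, against 1, 3 and 4 in *upf1Δ* (edgeR adjusted p = 0.276). In the printed *LSM7* sequence both downstream CAGs stand in exon 2.

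*LSM2* had the most alternative junctions, and the 2 with the most reads had a lower mean FAnS in *prp18Δupf1Δ* than in *upf1Δ*. An AAG 47 nt upstream of the annotated CAG lies before the UACUAAC, and the files pair it with an AACUAAC 30 nt before it. It had 26, 21 and 21 reads in *prp18Δupf1Δ*, against 71, 103 and 121 in *upf1Δ*. The FAnS was 6.77, 2.25 and 2.57% in *prp18Δupf1Δ* and 7.52, 5.75 and 6.02% in *upf1Δ*, so replicate 1 of *prp18Δupf1Δ* lay within the *upf1Δ* range. The log2 change was -0.92 ± 0.33 for FAnS (edgeR adjusted p = 0.0239) and -1.178 ± 0.343 for SE (edgeR adjusted p = 0.0101). Without replicate 1 of both strains the changes were larger, -1.29 for FAnS (edgeR adjusted p = 0.00648) and -1.57 for SE (edgeR adjusted p = 0.00147). The call for FAnS was lost with DESeq2 (adjusted p = 0.27) and without *prp18Δupf1Δ* replicate 2 (0.247), *prp18Δupf1Δ* replicate 3 (0.239) or *upf1Δ* replicate 1 (0.106), with a minimum of 1 read (0.089) and without the filters on overhangs and mismatches (0.244). The call for SE was lost under the same alternatives (0.152, 0.0772, 0.122, 0.0695 and 0.134) other than the minimum of 1 read. This junction and the annotated one can each be shifted by 2 bases with the same alignment. BBMap alone placed all 505 gapped reads of the AAG junction, while STAR alone placed 9618 of the 9743 gapped reads of the annotated junction, and the part of that difference in the FAnS was not tested.

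The other *LSM2* junction with many reads used an upstream 5′SS, GUAUGC, joined to the annotated CAG. The sequence around it is shown because the start codon lies inside it: the intron would begin 2 nt before the ATG at position 170623, so that the ATG falls in the capitals.
LSM2 exon 1: agcaaGTATGCttttcttct
This junction had 3, 14 and 4 reads in *prp18Δupf1Δ*, against 21, 33 and 40 in *upf1Δ*. The FAnS was 0.781, 1.499 and 0.490% in *prp18Δupf1Δ* and 2.22, 1.84 and 1.99% in *upf1Δ*. The strains did not overlap, yet the log2 change of -1.02 ± 0.43 missed the threshold for FAnS (edgeR adjusted p = 0.0619). Measured as SE, the change was -1.29 ± 0.42 and passed (edgeR adjusted p = 0.0194), though not with DESeq2 (0.113), with a minimum of 1 read (0.0872), without the filters on overhangs and mismatches (0.0877), or without *prp18Δupf1Δ* replicate 3 (0.145), *upf1Δ* replicate 1 (0.0568) or replicate 1 of both strains (0.0936). The same 5′SS joined to the AAG had 1 read in *prp18Δupf1Δ* and 4 in *upf1Δ*. The UUG, ACG, CAG and UAG sites of *LSM2*, at 13 nt upstream and 10, 40 and 67 nt downstream of the annotated 3′SS, had 5 to 25 reads each over the 6 libraries and missed the threshold (edgeR adjusted p between 0.214 and 0.806).

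*YSF3* was the only member without a kept alternative junction. Of its 5 listed junctions, none had more than 2 reads over the 6 libraries. The printed sequence holds 1 AG between branch and annotated 3′SS, an AAG 25 nt from the branch, and a junction to it was listed with 1 read. *YSF3* had 409 annotated reads in *prp18Δupf1Δ* and 422 in *upf1Δ*, so 0 reads at a junction allow a FAnS of up to 0.733% in *prp18Δupf1Δ* and 0.711% in *upf1Δ*. The depth was thus enough to see a site used like the *MUD1* AUG, but not one used like the *LSM7* UUG. Of the 1113 gapped reads of the annotated *YSF3* junction, STAR alone placed 1103 and BBMap alone 10. This junction can be shifted by 2 bases with the same alignment, and the part of the aligners in the SE of *YSF3* was not tested.

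**Figure D3:**
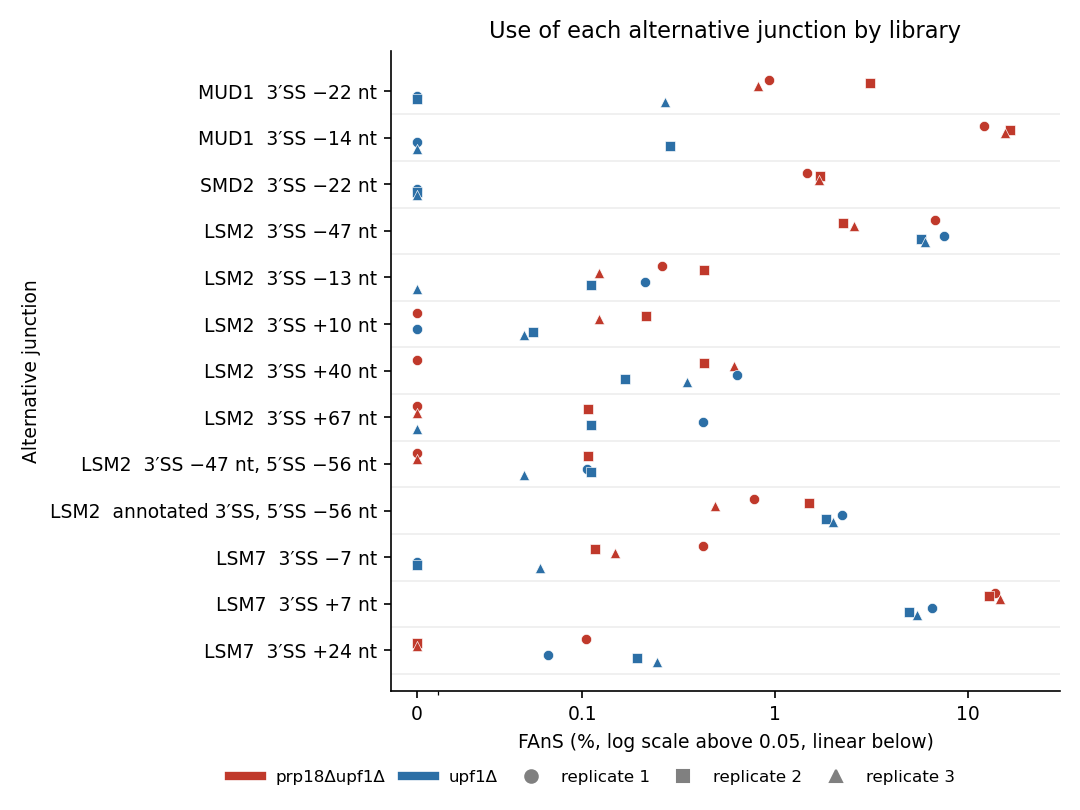
FAnS (%, log scale above 0.05 and linear below) of the 13 alternative junctions by library, *prp18Δupf1Δ* in red above *upf1Δ* in blue, with sites named by their distance from the annotated splice sites. The *MUD1* site at -14 nt stands at 12.1 to 16.5% in *prp18Δupf1Δ* against at most 0.286% in *upf1Δ*, and the *LSM2* site at -47 nt is the only one past the threshold with lower values in *prp18Δupf1Δ*.

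Set side by side as shares of all reads over the intron, the genes differed in what took the place of annotated reads. In *MUD1* the annotated junction made up 62.8% ± 13.9 of the reads in *prp18Δupf1Δ* and 96.4% ± 1.48 in *upf1Δ*, alternative junctions 9.98% ± 0.48 and 0.176% ± 0.153, and unspliced reads 27.2% ± 14.1 and 3.47% ± 1.32 (SD, n = 3 each). In *SMD2* the alternative share was 1.39% ± 0.05 in *prp18Δupf1Δ* and 0% in *upf1Δ*, and the unspliced share 12.6% ± 6.03 and 1.45% ± 1.14. In *LSM7* the alternative share, 11.4% ± 0.73 in *prp18Δupf1Δ* and 5.46% ± 0.66 in *upf1Δ*, exceeded the unspliced share, 6.89% ± 1.89 and 0.795% ± 0.367. In *LSM2* the alternative share was the lower one in the double mutant, 4.22% ± 1.64 against 7.96% ± 1.40 in *upf1Δ*, while the unspliced share was 20.8% ± 3.75 against 5.95% ± 1.34. *MUD1*, *SMD2* and *LSM7* thus had more of both products in *prp18Δupf1Δ*, and *LSM2* more unspliced but fewer alternative reads.

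**Figure D4:**
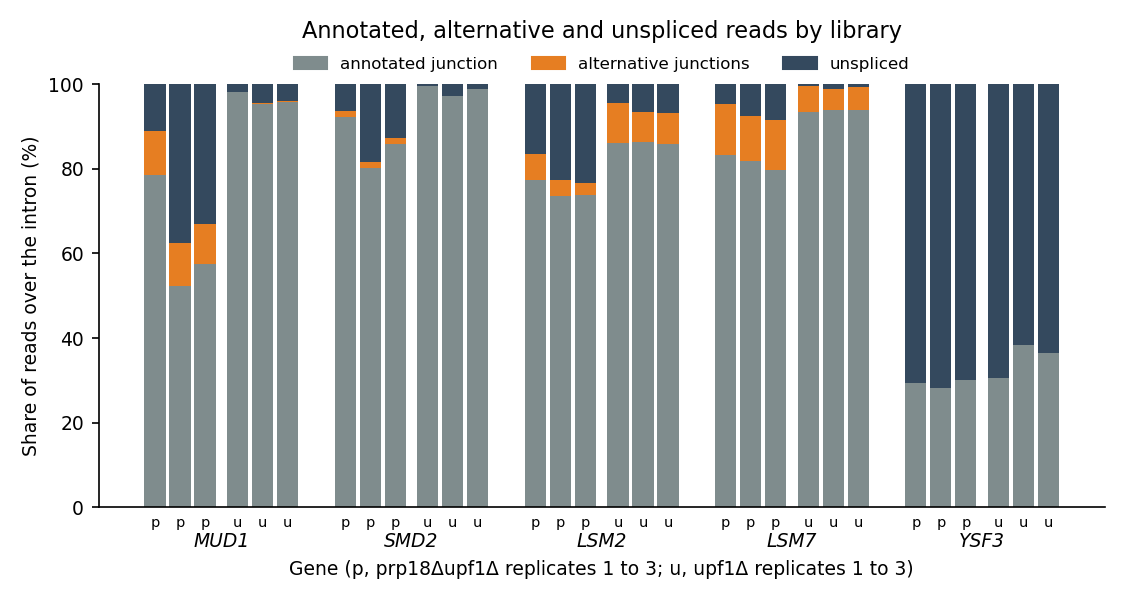
Shares (%) of annotated, alternative and unspliced reads over each intron, with 1 bar per library and the 3 *prp18Δupf1Δ* libraries (p) left of the 3 *upf1Δ* libraries (u). The alternative share (orange) appears in *MUD1* and *SMD2* mainly in *prp18Δupf1Δ*, is larger there in *LSM7*, smaller there in *LSM2*, and is absent in *YSF3*, where unspliced reads prevail in all 6 libraries.

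Neither the alternative junctions nor the unspliced transcripts, here those that keep the whole intron, encode the annotated protein. Of the 13 alternative junctions, 10 shift the reading frame, 2 remove the start codon and 1, the *LSM7* CAG at 24 nt downstream, keeps the frame and takes out 8 codons. Translated from the annotated start, *MUD1* mRNA joined at the AUG holds 28 codons before a stop, joined at the UAU 7 and unspliced 8, of 298 in the annotated mRNA. *SMD2* has 3 codons at the AAG and 4 unspliced, of 110. *LSM7* has 27 codons at the CAG 7 nt downstream, 7 at the UUG and 17 unspliced, of 115, and *LSM2* has 34 at the AAG and 21 unspliced, of 95. Unspliced *YSF3* has 12 codons before a stop, of 85. The mRNAs with an early stop codon are of the kind that nonsense-mediated decay removes, and that decay was absent in both strains. This does not extend to the 2 junctions that remove the start codon, or to the *LSM7* CAG at 24 nt downstream, which keeps the annotated stop.

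The level of each transcript was compared as spliced plus unspliced reads, in counts scaled to the total over all annotated introns (CPM) after TMM scaling, so that it is relative to other intron-containing transcripts. *SMD2* and *LSM7* were lower in *prp18Δupf1Δ* and *YSF3* was higher, while *MUD1* and *LSM2* did not pass the test. Among all 272 introns, 11.0% were called lower and 16.2% higher (30 and 44 introns), a split that turned to 52 lower and 25 higher when the scaling used only introns outside ribosomal protein genes. That scaling moved the median log2 change of all introns to -0.23, against 0.02. In the main test the median of the 168 introns outside ribosomal protein genes was 0.23, with quartiles of -0.17 and 0.63. The change of *YSF3*, 0.62, lay within these quartiles, and those of the other members lay below the lower quartile. The direction of all 5 members was the same under each scaling. In bulk RNA, fewer cells with a transcript and less of it per cell cannot be told apart.

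*SMD2* stood at 115.5, 130.0 and 138.4 CPM in *prp18Δupf1Δ*, against 227.8, 203.6 and 221.5 in *upf1Δ*, a log2 change of -0.77 ± 0.17 (edgeR adjusted p = 0.0140). *LSM7* stood at 794.8, 845.1 and 761.1 in *prp18Δupf1Δ*, against 1161, 1024 and 1035 in *upf1Δ*, a log2 change of -0.42 ± 0.12 (edgeR adjusted p = 0.0401). *YSF3* stood at 422.3, 408.1 and 423.3 in *prp18Δupf1Δ*, against 299.1, 253.6 and 261.5 in *upf1Δ*, a log2 change of 0.62 ± 0.14 (edgeR adjusted p = 0.0176). In these 3 genes the strains did not overlap, as was so in the lower direction for 18.4% and in the higher direction for 22.8% of all introns. With the replicate number as a block the calls held, at adjusted p of 0.00131, 0.00426 and 0.00229. The calls were close to the threshold: leaving out *prp18Δupf1Δ* replicate 2 (0.0686), replicate 2 of *upf1Δ* (0.0517) or its replicate 3 (0.0811) ended that of *SMD2*, and leaving out *prp18Δupf1Δ* replicate 3 (0.0533), replicate 2 of *upf1Δ* (0.0928) or its replicate 3 (0.0619) ended that of *YSF3*. That of *LSM7* was lost without any single library other than *prp18Δupf1Δ* replicate 1 (0.0505 to 0.141) without TMM scaling (0.0909) and with alternative reads added (0.0719), and that of *YSF3* with the scaling outside ribosomal protein genes (0.0781).

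*MUD1* stood at 193.8, 150.8 and 195.4 CPM in *prp18Δupf1Δ*, against 296.1, 237.4 and 243.4 in *upf1Δ*, with no overlap and a log2 change of -0.52 ± 0.18 (edgeR adjusted p = 0.0761). *LSM2* stood at 368.5, 1104 and 1092 in *prp18Δupf1Δ*, against 761.6, 1249 and 1355 in *upf1Δ*, a log2 change of -0.39 ± 0.42 (edgeR adjusted p = 0.538). Replicate 1 was by far the lowest library of *LSM2* in each strain, and the strains overlapped. With the replicate number as a block, *LSM2* changed by -0.50 (adjusted p = 0.00986) and *MUD1* by -0.53 (adjusted p = 0.0112), and without replicate 1 of both strains they changed by -0.25 (0.00433) and -0.48 (0.000249).

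Annotated spliced reads alone, which leave out the unspliced transcripts, gave log2 changes of -0.73 for *MUD1* (edgeR adjusted p = 0.0509), -0.69 for *SMD2* (0.0141), -0.41 for *LSM2* (0.534), -0.28 for *LSM7* (0.127) and 0.61 for *YSF3* (0.0268). Scaled to the total of annotated reads alone, *YSF3* had 125.5, 141.0 and 157.9 CPM in *prp18Δupf1Δ*, against 88.3, 105.1 and 101.8 CPM in *upf1Δ*. All 3 *prp18Δupf1Δ* libraries were above all 3 *upf1Δ* libraries in its spliced reads on this scale.

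**Figure D5:**
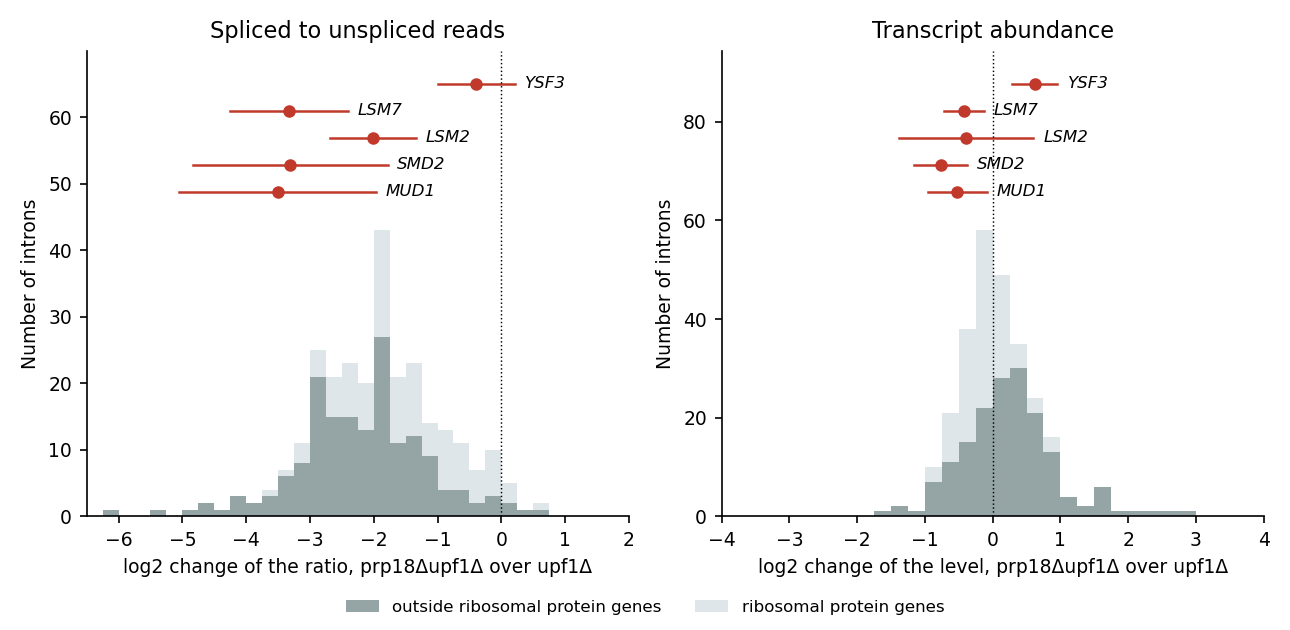
Log2 changes, *prp18Δupf1Δ* over *upf1Δ*, of the ratio of spliced to unspliced reads (left) and of transcript abundance (right), as stacked histograms of 272 introns with the 5 genes above them as points with 95% intervals. On the left *MUD1*, *SMD2* and *LSM7* lie near -3.3 to -3.5 and *YSF3* at -0.39, and on the right *YSF3* is the only member above 0.

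A list of 7 genes of RNA metabolism next to splicing (cap binding, export, an RNA helicase and decay) was set beside these genes, and 6 of them were in the tables, with 7 introns. The ratio of spliced to unspliced reads was lower in 5 of the 7 introns and 2 did not pass, with a median log2 change of -1.99, against 81.6% lower and a median of -1.92 among all introns. The 4 with the most reads were *YRA1*, an mRNA export factor (log2 change -1.04, edgeR adjusted p = 0.00564), the 2 introns of *SUS1*, whose protein acts in transcription and export (-1.99, adjusted p = 0.0133, and -1.30, adjusted p = 0.0769), and *DBP2*, an RNA helicase (0.09, adjusted p = 0.769). The shift of *DBP2*, whose SE was 97.5% ± 0.46 in *prp18Δupf1Δ* and 97.4% ± 0.59 in *upf1Δ*, was the smallest of these, and like that of *YSF3* it missed the threshold.

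The introns outside ribosomal protein genes whose SE over the 6 libraries was most like that of each member were found by the Euclidean distance of logit SE, as a description. They were *MOB2* and *MMS2* for *MUD1* (distances 0.78 and 0.87), *VMA9* and *IMD4* for *SMD2* (0.87 and 1.04), *MRPL44* and *RPO26* for *LSM2* (0.29 and 0.38) and *VMA9* and *TEF4* for *LSM7* (0.64 and 0.84). *YSF3* was nearest to *APE2* and *CMC4* (0.71 and 1.33), the first with an SE of 28.02% ± 4.35 in *prp18Δupf1Δ* and 36.8% ± 6.26 in *upf1Δ*. No member was among the nearest introns of another member.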

How the data were processed

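RNA from 3 *prp18Δupf1Δ* and 3 *upf1Δ* libraries was examined through 1 table of splice junctions per library. Per the labels and the study's methods, the authors trimmed reads with cutadapt 1.18, aligned them to R64 with STAR 2.7.0d and BBMap and took the better of both placements. The deposited junction reads are raw counts per junction. The deposited unspliced reads are an estimated count, for which the authors took the mean of the reads across both intact splice sites. The deposited SE of annotated junctions is a fraction, and the FAnS and the SE of alternative junctions are each a ratio that the authors computed from these counts. Recomputing SE from the counts gave the deposited value for 12588 of 12588 rows, and FAnS for 12550 of 12550, within a relative tolerance of 1e-06. Both splice sites matched R64 in 5274 of 5274 junctions.

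The 5 genes, the list set beside them and the tests were chosen with earlier results of these data known. Alternative junctions were kept with a perfect overhang of 10 bp or more upstream and 40 bp or more downstream, at least 50% of reads without a mismatch within 10 bp, and at least 6 gapped reads over the 6 libraries. The paper also states a minimum of 6 reads for its alternative 3′SS. The minimum used here was set after seeing that it gives numbers of junctions close to those of the study. Introns needed at least 10 reads in all and 1 in every library. Ratios were tested by edgeR 4.0.16 (quasi-likelihood) in R 4.3.3, which compared 2 counts within each library, the reads of both unspliced sites being added. For abundance, edgeR was used on TMM-scaled totals. P values were adjusted by Benjamini-Hochberg over all features, with a threshold of 0.05. DESeq2 1.42.0, limma 3.58.1, other filters and scalings, a replicate block and leaving out libraries were the alternatives. The tests were tested on simulated data. Same-numbered libraries of the strains deviated together (correlations of 0.58, 0.31 and 0.38 over 272 introns), and the block is printed where it changes a call. The correlation was 0.34 between *prp18Δupf1Δ* replicate 2 and *upf1Δ* replicate 3, and 0.37 between *prp18Δupf1Δ* replicate 3 and *upf1Δ* replicate 2. These values set replicate 1 apart but do not show that replicates 2 and 3 pair by number. Limits for a count of 0 are 3 reads over the annotated reads, and these limits and the intervals of pooled ratios cover counting error only. The logit SE had 0.5 reads added to both counts. Named junctions are all those kept in the 5 genes. The list set beside them was *STO1*, *CBC2*, *YRA1*, *MTR2*, *SUS1*, *DBP2* and *NMD2*, of which *CBC2* was not analysed here, with values given for the 4 introns with the most reads. For each of the 5 genes, the 2 nearest introns outside ribosomal protein genes were named. The rest was done in python 3.11.15 with matplotlib 3.10.9, scipy 1.17.1, numpy 2.4.6 and pandas 2.3.3.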

Additional observations from a re-analysis of the deposited data

How the results depend on the processing

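The log2 changes of annotated splicing of *MUD1*, *SMD2*, *LSM2* and *LSM7* kept their direction and their side of the threshold under all 12 alternatives run, between -4.18 and -1.83 (edgeR, DESeq2 or limma adjusted p at most 0.00929). With each library left out in turn they ranged from -4.18 to -3.05 for *MUD1*, -4.03 to -2.88 for *SMD2*, -2.19 to -1.83 for *LSM2*, -3.70 to -3.06 for *LSM7* and -0.54 to -0.29 for *YSF3*. *YSF3* passed the threshold under 1 alternative, without replicate 1 of both strains (-0.55), and stayed above it with the replicate block (-0.39, adjusted p = 0.0512). A lower ratio was called for 222 introns in the main test and for 256 without replicate 1 of both strains. No intron had a higher ratio in the main edgeR test, at an unadjusted p under 0.05 or with DESeq2 or limma (0 introns), but 1 did with the replicate block, 2 without replicate 1 of both strains, and 0 to 1 with a library left out. Lower FAnS was called for 95 junctions, for 53 with DESeq2, 45 without replicate 1 of both strains, 54 with a minimum of 1 read, 61 without the filters on overhangs and mismatches and 55 to 88 with a library left out. Higher FAnS was called for 186, for 118 without replicate 1, 111 of 345 with at least 20 reads and 140 to 171 with a library left out. Lower SE of alternative junctions was called for 122, for 67 without replicate 1 and 79 to 117 with a library left out, and higher SE for 148, for 89 without replicate 1, 95 with at least 20 reads and 112 to 133 with a library left out. For abundance, 30 introns were lower and 44 higher, 77 and 82 with the replicate block, 93 and 111 without replicate 1 of both strains, 52 and 25 with the scaling outside ribosomal protein genes, and 10 to 42 and 26 to 59 with a library left out. The replicate block changed no other call of the members than those of *LSM2* and *MUD1* abundance, the *LSM7* UUG and the SE of the *MUD1* UAU (3.18, adjusted p = 0.0706).

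Sign changes occurred in 3 rarely used *LSM2* junctions that missed the threshold throughout. For the CAG at 40 nt downstream, the log2 change of FAnS was -0.14 without *prp18Δupf1Δ* replicate 3 and -0.07 without *upf1Δ* replicate 2 (-0.14 to 0.70 over single libraries left out), and that of SE was -0.13 with DESeq2, -0.40 and -0.35 without those libraries (-0.40 to 0.43) and -0.027 without the filters on overhangs and mismatches. For the UAG at 67 nt downstream, that of FAnS was 0.12 without *upf1Δ* replicate 1 (-2.72 to 0.12) and 0.27 without replicate 1 of both strains. For GUAUGC joined to the AAG it was 0.032 without *prp18Δupf1Δ* replicate 3 (-2.15 to 0.032). The cause was not tested. Fits with unspliced reads across the 5′SS or the 3′SS alone, and a comparison of these reads with each other, were not run, since the values used here give only their mean.

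Junctions with 5 to 10 reads in all limit the *SMD2* AAG, the *MUD1* UAU and the *LSM7* UUG, whose folds are set against a floor or have wide counting intervals. These sites met the minimum of gapped reads wholly or mostly through *prp18Δupf1Δ*, the strain in which they were higher. The log2 change of annotated splicing of *SMD2* rests on 1.5 to 8.5 unspliced reads per *upf1Δ* library.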
